A study of Mus musculus with 3 samples.

Results

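Zcchc7 and Tut4 are 2 genes of RNA surveillance on mouse chromosome 4, and both held a tract of closely set peaks of the leukaemia fusion protein NUP98-HOXD13. Their peaks were chosen from the authors' deposited peak lists by position: a peak belonged here when its summit lay in the gene span or within 10 kb of it. This gave 15 of the 1013 peaks on chromosomes 1 to 19, X and Y, namely 13 of 613 in cells given DMSO and 2 of 400 in cells given VTP50469. The tracts, and which list held each peak, were known before the genes were picked. The numbers of peaks, their strengths and their overlap between lists are therefore described here without a test.

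All libraries came from 1 mouse leukaemia cell line that carries NUP98-HOXD13 and was grown with mouse IL-3, IL-6 and SCF. The fusion joins the nucleoporin NUP98 to the DNA-binding homeodomain of HOXD13, and it was tagged with biotin and pulled down on streptavidin beads. Cells received the solvent DMSO, or 2 µM VTP50469, which blocks the contact between menin and MLL, and were sampled at 96 h. There was 1 pull-down library per treatment, so every difference below is between 2 libraries. The third sample of the series, a DMSO input, was not analysed here. The lists hold positions and peak strengths, and no RNA level of either gene.

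ZCCHC7 is the RNA-binding subunit of the nuclear TRAMP complex, in which a poly(A) polymerase and the helicase MTREX mark faulty nuclear transcripts for the RNA exosome. TUT4, formerly ZCCHC11, is a cytoplasmic terminal uridylyltransferase. It adds uridines to the 3′ ends of messenger RNAs that have lost their poly(A) tails and, guided by LIN28, to precursors of the let-7 microRNAs, which DIS3L2 then degrades. Both proteins bind RNA through CCHC zinc knuckles. Pax5, the neighbour of Zcchc7, encodes the transcription factor that commits lymphoid progenitors to the B lineage.

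The peaks lay inside the gene spans and away from the annotated starts. Both genes are on the plus strand, and their upstream sequences are shown because these were the windows in which the fusion gave no peak. They run from 250 to 51 bases before the start, 5′ to 3′, in RefSeq's GRCm38.p6 assembly, which shares its chromosome coordinates with mm10. The Zcchc7 window is chr4:44756309-44756508 and the Tut4 window, at the outermost of its 2 listed starts, is chr4:108459160-108459359.
Zcchc7: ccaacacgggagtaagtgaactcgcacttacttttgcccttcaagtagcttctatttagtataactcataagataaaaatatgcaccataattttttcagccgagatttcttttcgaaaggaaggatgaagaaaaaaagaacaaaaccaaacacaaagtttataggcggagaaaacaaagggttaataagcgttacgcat
Tut4: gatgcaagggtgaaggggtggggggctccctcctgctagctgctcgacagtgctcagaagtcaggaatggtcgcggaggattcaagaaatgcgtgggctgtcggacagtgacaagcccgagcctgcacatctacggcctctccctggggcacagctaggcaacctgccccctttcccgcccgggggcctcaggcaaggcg
The Zcchc7 window had 35.5% G and C with 7 CpG pairs, and the Tut4 window had 64.5% with 10, against medians of 51.5% and 4 over 32851 such windows. Neither window held CCAATAAA or CTCGTAAA, letters that HOXD13 binds in vitro, on either strand, so no base is in capitals. Of all windows 0.837% held the first motif and 0.0913% the second. No peak of either list touched the start windows of Zcchc7, Tut4 or Pax5, taken from 250 bases before to 50 after the start. Over the genome 15 of the 32851 windows (0.0457%) touched a DMSO peak and 12 (0.0365%) a VTP50469 peak.

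**Figure D1:**
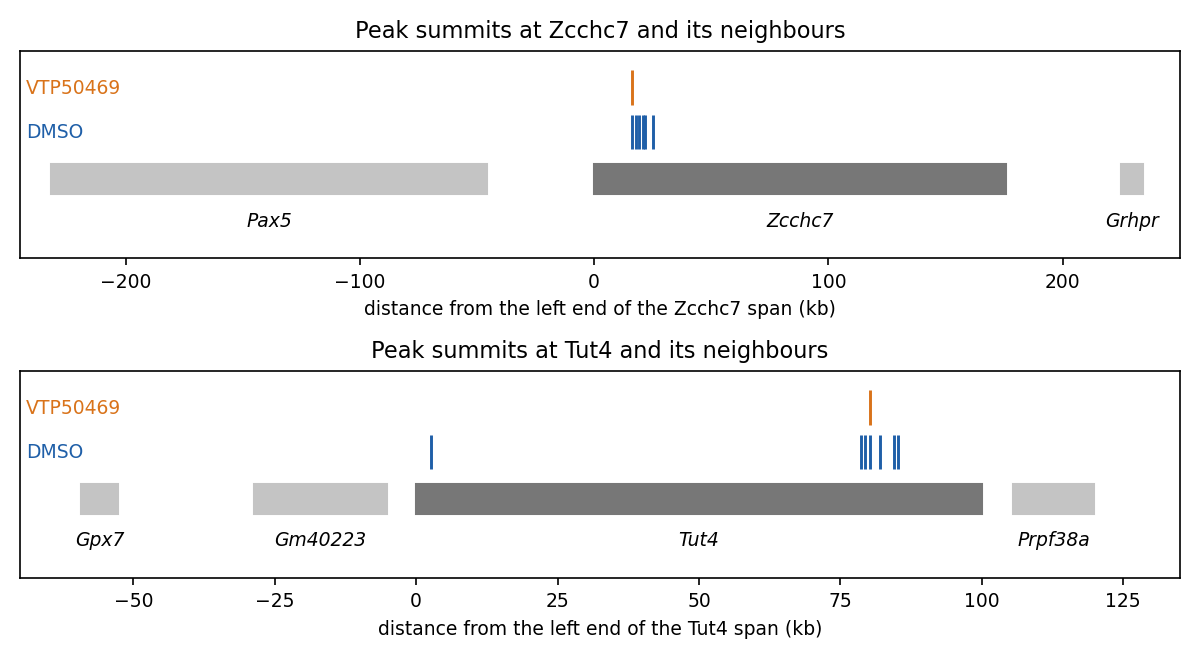
Gene spans (grey bars) and peak summits (vertical lines, DMSO in blue and VTP50469 in orange) against the distance in kb from the left end of the Zcchc7 span (top) and of the Tut4 span (bottom). The 6 Zcchc7 summits sit together 16.2 to 24.9 kb into the gene and none lies in Pax5, while Tut4 has 1 summit near its left end and 6 near its right end.

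Zcchc7 had 6 peaks with DMSO and 1 with VTP50469, and Tut4 had 7 and 1. In each gene the VTP50469 peak lay wholly inside the DMSO peak with the highest −log10 q of that gene. The other 5 Zcchc7 peaks and 6 Tut4 peaks overlapped no VTP50469 peak, so 11 of 13 DMSO peaks (84.6%) were in the DMSO list alone. Of all 613 DMSO peaks, 50.2% were in that list alone. The genes were picked with this difference between lists known, so the higher share in them is partly given by that choice. The 2 VTP50469 peaks both overlapped a DMSO peak, where 22.2% of all 400 VTP50469 peaks overlapped none. All 13 DMSO summits lay inside the 2 gene spans, and 61.0% of all DMSO summits lay inside the span of a protein-coding gene. No summit lay in the flanks, and the nearest DMSO summits beyond them were 8896 kb from Zcchc7 and 5388 kb from Tut4, with folds of 7.04 and 4.93. The nearest VTP50469 summits beyond them were 5510 kb from Zcchc7 and 13118 kb from Tut4.

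Zcchc7 spans chr4:44756558-44932215, or 175.7 kb, and its tract took up the stretch from 8.98% to 14.3% of that length. Fold here is the authors' enrichment of a library over background at the summit, and −log10 q is the negative log10 of their adjusted p-value. The first peak, chr4:44772325-44773257, had a fold of 17.4 and a −log10 q of 61.7 with DMSO. The VTP50469 peak inside it, chr4:44772661-44773064, had a fold of 5.76 and a −log10 q of 8.36 in its own list. The 2 summits were 3 bp apart, and the interval was 933 bp wide with DMSO and 404 bp with VTP50469.

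The next Zcchc7 peak, chr4:44774084-44774847, was the weakest of the 6, with a fold of 6.74. The next pair, chr4:44775321-44776193 and chr4:44777303-44777664, both had a fold of 13.8 and a −log10 q of 26.2. The peak after them, chr4:44778080-44778823, had a fold of 14.7 and a −log10 q of 29.0. The last, chr4:44781017-44781642, had a fold of 9.59. The DMSO peaks were thus high at the left end and in the middle of the tract, with 1 low peak between, and all but the first were missing from the VTP50469 list. The RefSeq table gives neither exons nor introns, so whether these intervals are exonic or intronic was not determined.

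**Figure D2:**
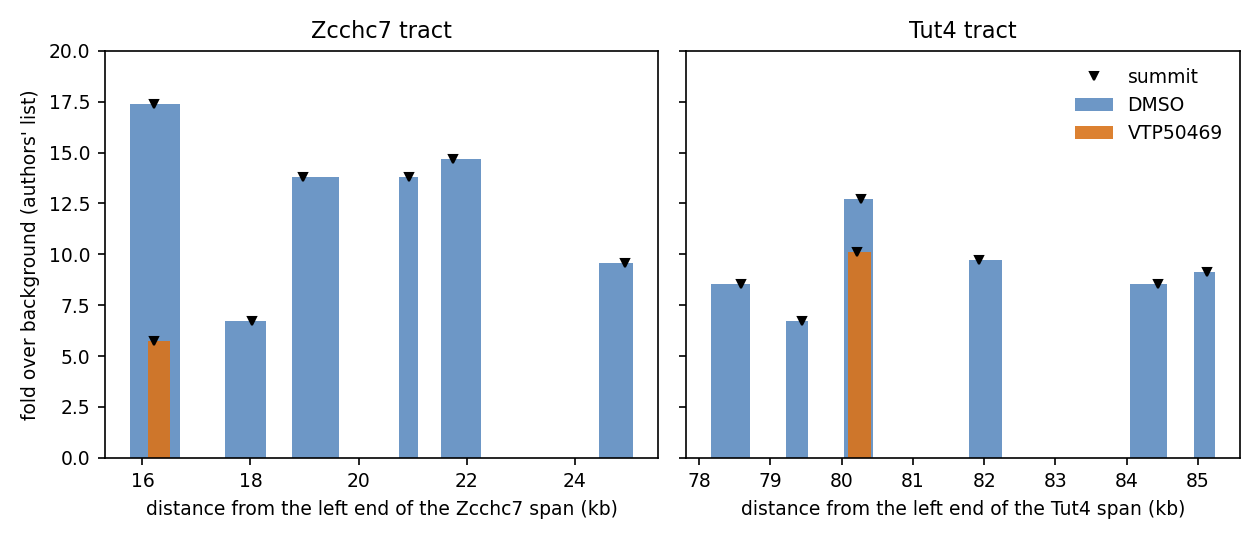
Fold over background in the authors' lists (bar height) for each peak of the Zcchc7 tract (left) and the Tut4 tract (right) against distance in kb from the left end of the gene span. Bar width is the peak interval, triangles mark summits, DMSO is blue and VTP50469 orange. The single orange bar lies inside the tallest DMSO bar of each tract, at a fold of 5.76 against 17.4 in Zcchc7 and 10.1 against 12.7 in Tut4.

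Zcchc7 and Pax5 lie head to head, with Pax5 on the minus strand and 45.9 kb between the near ends of their spans. Pax5, chr4:44524748-44710694, had 0 summits in either list over its 186 kb. The nearest DMSO summit, that of the first Zcchc7 peak, was 62.1 kb from the Pax5 start, and the last of the tract was 70.8 kb from it. The nearest VTP50469 summit was also 62.1 kb away. On the far side of Pax5 the next DMSO summit was 28284 kb away and the next VTP50469 summit 5278 kb away. The tract lay 16.2 to 24.9 kb from the Zcchc7 start, closer than to the Pax5 start. In this layout that holds for any site inside the Zcchc7 span. On the other side of Zcchc7, Grhpr, which encodes a glyoxylate reductase, was 200 kb from the nearest DMSO summit. The lists measure where the fusion was found and do not show which gene, if either, a site acts on.

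Tut4 spans chr4:108459410-108559415, or 100.0 kb, and its peaks fell at opposite ends of the gene. One peak, chr4:108461715-108462144, had its summit 2.62 kb from the outermost start and 2.02 kb from the second listed start. It had a fold of 10.5 and a −log10 q of 17.0, the second highest of the 7 Tut4 peaks, and was in the DMSO list alone. The nearest VTP50469 summit to the outermost start was 80.2 kb away. The other 6 peaks formed the tract at 78.2% to 85.2% of the span, and 76.0 kb separated its first summit from the peak near the start.

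The strongest of the tract, chr4:108539444-108539855, had a fold of 12.7 and a −log10 q of 23.5 with DMSO. The VTP50469 peak inside it, chr4:108539501-108539821, had a fold of 10.1 and a −log10 q of 15.9 in its own list. Their summits were 52 bp apart and their widths were 412 and 321 bp. To its left lay chr4:108537579-108538123 with a fold of 8.54 and chr4:108538635-108538942 with a fold of 6.74. To its right were chr4:108541195-108541664, chr4:108543456-108543972 and chr4:108544359-108544643, with folds of 9.74, 8.54 and 9.14. The Tut4 peaks were more even than those of Zcchc7, running from 6.74 to 12.7 against 6.74 to 17.4. The leftmost tract interval overlapped Gm22345, a small nuclear RNA gene at chr4:108537491-108537597, by 19 bp, and its summit lay 406 bp outside that gene. On the right, Prpf38a, a pre-mRNA splicing factor gene, began 5.45 kb beyond Tut4 and was 20.3 kb from the nearest DMSO summit.

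The median summit distance in each tract was below the median over all such groups of DMSO peaks. In Zcchc7 the successive distances were 1811, 953, 1961, 803 and 3194 bp, with a median of 1811 bp. In Tut4 they were 844, 830, 1659, 2521 and 674 bp, with a median of 844 bp. The DMSO list had 39 chains of at least 3 peaks with each summit within 50 kb of the next, and the median of their 109 distances was 2963 bp (quartiles 1438 and 6841 bp). Tut4 had 1.18 kb of tract per peak, the second shortest of the 39 chains, and Zcchc7 had 1.55 kb, the sixth shortest, where the median chain had 3.89 kb. The Zcchc7 intervals were wider, with a median of 754.0 bp against 441.0 bp in the Tut4 tract and 350.0 bp over the DMSO list. Peak intervals covered 46.2% of the Zcchc7 tract and 35.9% of the Tut4 tract. Close spacing was not particular to these genes. The chain of 8 DMSO peaks in the gene 9930021J03Rik, chr19:29733519-29752495, had a median distance of 1451 bp, shorter than in Zcchc7. That chain had 2.37 kb per peak. The 39 chains were not filtered, and they include chr9:3001199-3038076, which peaks covered to 92.9%, with 6.15 kb per peak. They also include both tracts, which were known before the genes were picked. Peaks of 1 tract share a locus and are not independent sites.

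To set the libraries side by side, the number of fragments at each summit was worked out from the fold and the p-value in the authors' lists. Intervals are exact Poisson 95% intervals and cover counting error only. The first Zcchc7 summit had 197 fragments (170 to 227) with DMSO and 60 (45.8 to 77.2) with VTP50469. The shared Tut4 summit had 82 (65.2 to 102) with DMSO and also 60 (45.8 to 77.2) with VTP50469. The 2 shared sites therefore stood at the same number with VTP50469 and apart with DMSO.

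After scaling for depth, VTP50469 fragments divided by DMSO fragments gave a ratio of 0.322 (exact 95% interval 0.237 to 0.432) at Zcchc7 and 0.774 (0.546 to 1.09) at Tut4. Over 286 summits matched within 200 bp the median ratio was 0.90 with quartiles of 0.753 and 1.04. The ratio was lower than at Zcchc7 at 1 of these summits and lower than at Tut4 at 77. A DMSO peak with no VTP50469 summit within 200 bp gave no ratio, so the lowest ratios can be missing. The place of Zcchc7 therefore holds only among summits listed in both libraries. These intervals cover counting error in 2 single libraries, carry no replicate error and are no test. The depth ratio was not read from read totals: it is the ratio of the values that 1 fragment takes in the 2 lists (0.347 with DMSO and 0.367 with VTP50469), which assumes 1 control for both. The local background rebuilt at the Zcchc7 summit was 3.0 in each list.

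**Figure D3:**
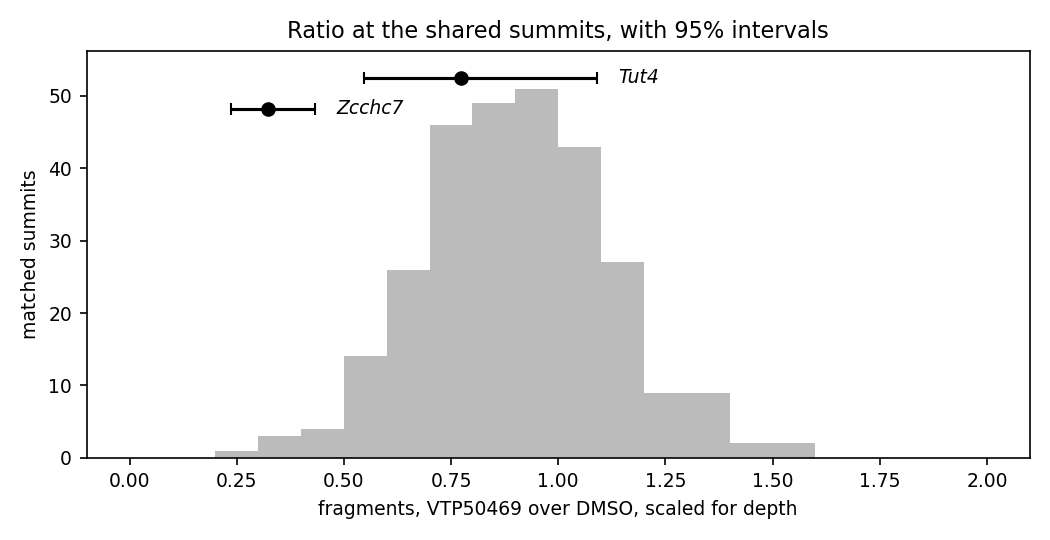
Number of matched summits (grey bars) by their depth-scaled fragment ratio, VTP50469 over DMSO, with the ratios of the shared Zcchc7 and Tut4 summits above (points with exact 95% intervals, placed at arbitrary height). Zcchc7 at 0.322 lies in the left tail and Tut4 at 0.774 within the main body. Only summits listed in both libraries have a ratio, so the left tail can be cut short.

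The summits in the DMSO list alone had 42 to 95 fragments in Zcchc7 and 42 to 67 in Tut4. All 11 lay at the genome background of the DMSO list. The 5 Zcchc7 summits had 42, 89, 89, 95 and 61 fragments from left to right. The 6 Tut4 summits had 67, 54, 42, 62, 54 and 58. On the assumption of 1 control, the VTP50469 library was 5.50% less deep, and an equal signal would have given 39.7 to 89.8 fragments. The VTP50469 list held peaks at its genome background with as few as 26 fragments, and 74 of its 241 such peaks had fewer than 39.7. A count of 26 would be a ratio of 0.290 at the strongest of the 11 and 0.655 at the weakest 2. The VTP50469 counts at these sites were not analysed here, and absence from the list does not show that the fusion was absent.

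**Figure D4:**
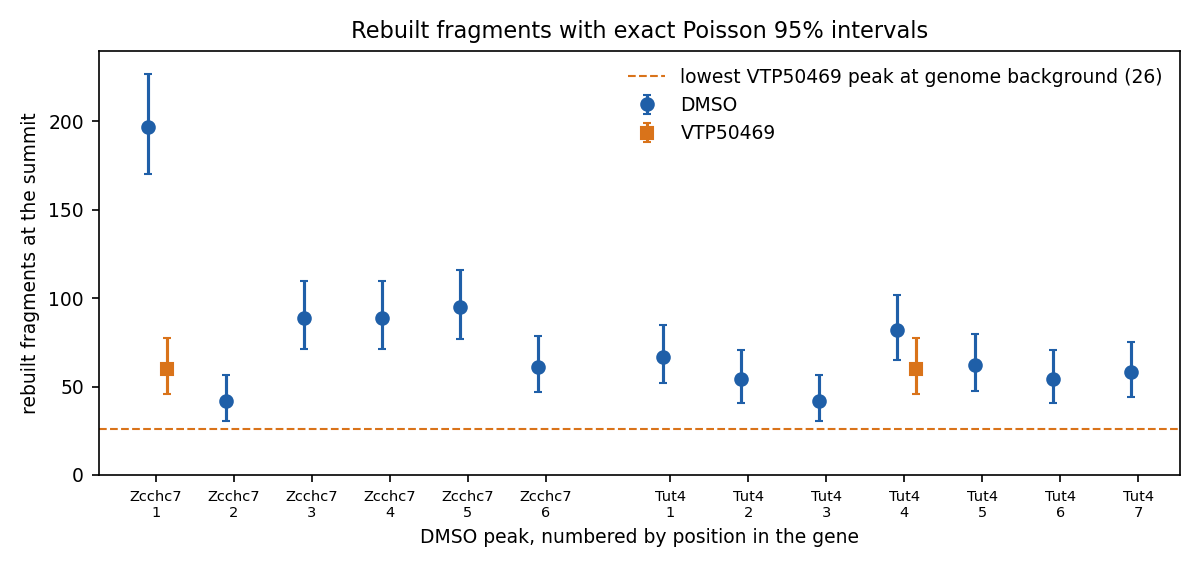
Rebuilt fragments at the summit of each DMSO peak (blue circles), numbered by position within Zcchc7 and Tut4, and of the VTP50469 peak where there was one (orange squares), with exact Poisson 95% intervals. The dashed line marks 26 fragments, the lowest VTP50469 peak at genome background. Every DMSO point lies above it, but the lowest DMSO peak at genome background in the whole list, with 28 fragments, does too.

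By −log10 q the first Zcchc7 peak ranked 17 of 613 DMSO peaks and the shared Tut4 peak ranked 111. Peaks of low fold were not filtered out, and those ranked 1, 3 and 6 had folds of 1.51, 2.51 and 1.67. The 3 strong Zcchc7 peaks of the DMSO list alone ranked 81, 97 and 97. In the strongest of 4 near-equal bins of the DMSO list 21 of 154 peaks (13.6%) were in that list alone, and 3 of the 21 were these Zcchc7 peaks. Tut4 had 5 peaks in the next bin, all in the DMSO list alone, where 77 of 153 peaks (50.3%) were. The weakest peak of each gene had a rank of 426 and lay in the bin below, and neither gene had a peak in the weakest bin.

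**Figure D5:**
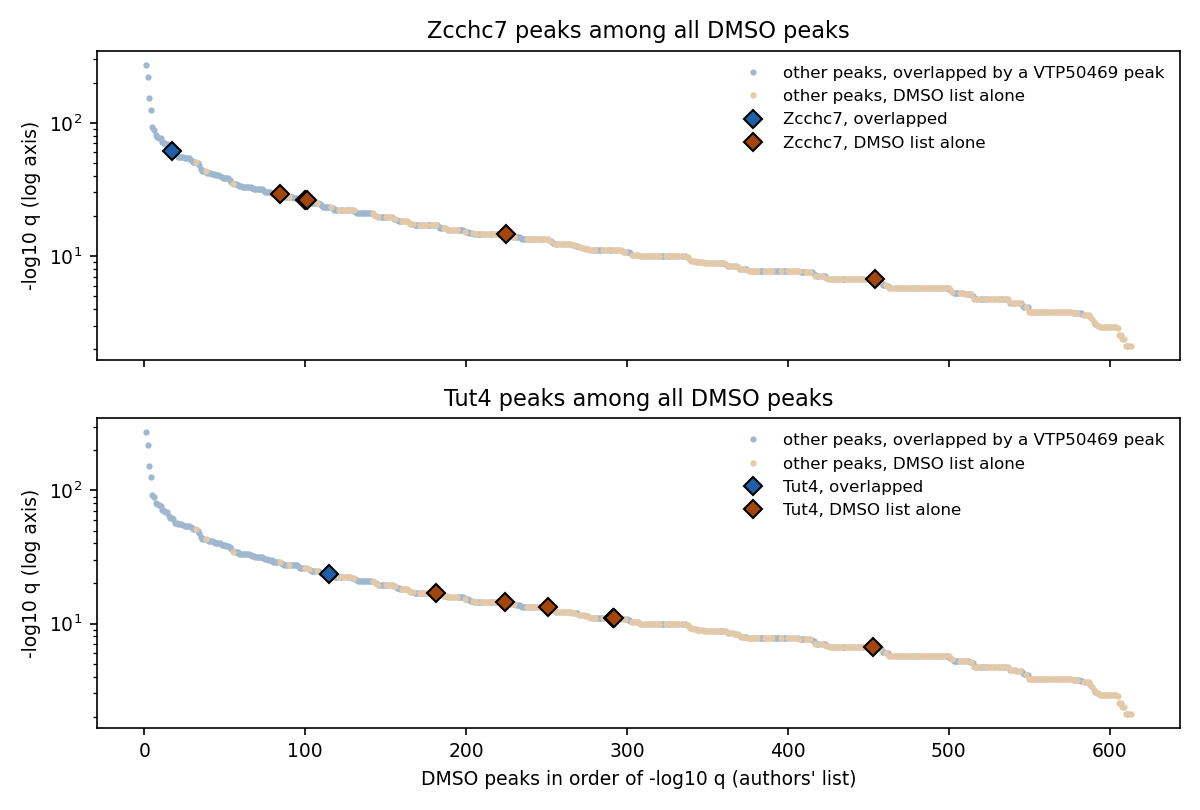
All 613 DMSO peaks in order of the authors' −log10 q (log axis), with Zcchc7 peaks marked in the upper panel and Tut4 peaks in the lower. Blue diamonds overlap a VTP50469 peak and brown ones are in the DMSO list alone; the 2 Zcchc7 peaks at rank 97, and the 2 Tut4 peaks at rank 278, cover each other.

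Of 21887 protein-coding genes 4 (0.0183%) had 6 or more DMSO summits in the span or within 10 kb. Besides Tut4 and Zcchc7 these were 9930021J03Rik, with 9 DMSO and 2 VTP50469 peaks, and Pbx3, a gene for a HOX partner protein, with 7 and 2. In all 4 genes the DMSO peak with the highest −log10 q was one that overlapped a VTP50469 peak, as did 133 of the 154 peaks in the strongest bin. The peaks in the DMSO list alone numbered 7 in 9930021J03Rik, 5 in Pbx3, 6 in Tut4 and 5 in Zcchc7, where 50.2% of all DMSO peaks were. The listed folds of the peaks with the highest −log10 q were 25.8 in 9930021J03Rik, 28.3 in Pbx3, 17.4 in Zcchc7 and 12.7 in Tut4. Their order changed with the background: the Zcchc7 summit had a local background of 3.0 and the other 3 had 1.31, and at the genome background its fold would be 30.0. In rebuilt fragments these summits had, in the same order of genes, 169, 186, 197 and 82, and another Pbx3 summit had 211. Whether Zcchc7 and Tut4 differed from these 2 genes was not tested.

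Genes of known partners of ZCCHC7 and TUT4 had no peak within 10 kb in either list. Only 1.48% of all protein-coding genes had one with DMSO and 1.06% with VTP50469. A count of 0 among the other genes of short lists, here of 8 to 16 genes, is near those shares. Of 8 genes of nuclear exosome adaptors, Zcchc7 alone had a peak, and of 11 terminal nucleotidyltransferase genes Tut4 alone did. The TRAMP polymerase genes Tent4a and Tent4b, and Tut7, the closest relative of Tut4, were among those with 0. None of 16 RNA exosome and exonuclease genes and none of 10 genes of nonsense-mediated decay had a peak in either list. Among 12 genes of let-7 and microRNA processing, Tut4 was again the only one, so Lin28a, Lin28b and Dis3l2 had none. None of 15 genes of Pax5 and other B-cell regulators had a peak. Over all lists 2 of 67 genes had a peak with DMSO and the same 2 with VTP50469, where 1.48% and 1.06% of all protein-coding genes did. Those 2 were Zcchc7 and Tut4, picked because of their peaks, so this count says nothing about RNA surveillance genes as a class. No other listed gene had a peak. The helicase gene Mtrex was 246 kb from the nearest DMSO summit and 217 kb from the nearest VTP50469 summit. Irf4, a B-cell and plasma-cell regulator, was 79.7 kb from a DMSO summit of fold 15.5 and from a VTP50469 summit of fold 16.5.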

How the data were processed

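Binding of biotinylated NUP98-HOXD13 was measured by streptavidin pull-down and sequencing (BioChIP-seq) in 1 library per treatment. The authors deposited 1 peak list per pull-down on mm10. MACS2, bedtools, SAMtools 1.95, Picard 2.9.4, STAR 2.7.5a and bcl2fastq 2.20.0.422 appear in the submitters' processing notes without roles. The settings, calling threshold and control were not given in the sources used here. The deposited lists give a fold enrichment (a ratio to background), a −log10 p, a −log10 q and a score; the score repeats −log10 q and was not used. Read totals are not in the lists.

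Analyses ran in Python 3.11.15 (scipy 1.17.1, pandas 2.3.3, numpy 2.4.6, matplotlib 3.10.9). Gene spans came from RefSeq GRCm38.p6. Peaks were shared when at least 1 bp overlapped, and no tests were run. Fragments were rebuilt assuming Poisson p-values, whole fragments scaled to the control, and a pseudocount of 1. A count was accepted where the listed −log10 p was met within 0.001, which gave values for 608 of 613 DMSO and 395 of 400 VTP50469 peaks. Genome backgrounds of 1.314 and 1.292 were fitted. The rebuilding was checked on peaks simulated under these same assumptions, and the gene assignment on points placed in known genes. These checks cover the calculation and do not show that the authors' lists meet the assumptions.

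The genes and the 6 gene lists were chosen with earlier results of these data known. Named genes were Zcchc7, Tut4, Pax5, their neighbours, listed genes with a peak, and genes with at least as many DMSO peaks as Tut4. Listed genes without a peak and Gm22345 were named after their values were seen. Sequences of the peaks were not analysed here.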

Additional observations from a re-analysis of the deposited data

How the results depend on the processing

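The alternatives covered the flank, the −log10 q threshold, the overlap rule, equal list lengths, the chaining gap, the sequences counted and the measure of strength. Centring and ranking by rebuilt fragments were added after seeing the data. Of 39 alternative values, these included, 34 stayed within 1.5 times the main value, or within its interval, and 5 moved. At −log10 q of at least 10 the Zcchc7 count with VTP50469 was 0, because its single peak had 8.36. With reciprocal overlap of at least 50 percent 0 Zcchc7 peaks were shared, because the VTP50469 interval is narrower. Peaks extended by 1 kb gave 2 shared DMSO peaks in Zcchc7 and 4 in Tut4, by construction in such dense tracts. Ranked by fold in place of −log10 q, the first Zcchc7 peak stood at 38. Over all sequences 47.8% of DMSO peaks were in that list alone. Centring on the median of matched summits gave ratios of 0.358 at Zcchc7 and 0.860 at Tut4. No paired analysis was possible because the labels give 1 replicate per treatment. Depth per library is not listed, and the weakest single peaks, with 42 fragments, have the widest relative error.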

Other observations

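The fold and the fragment count put the shared Zcchc7 site in different places. Its local background was 3.0, against 1.31 at the other 12 DMSO summits of the 2 genes, and the authors' fold divides by that background. With the genome background of each list in its place the fold would be 30.0 with DMSO and 10.1 with VTP50469. By listed fold the site ranked 38 among 613 peaks with DMSO and 306 among 400 with VTP50469. By rebuilt fragments it stood at 15 of 608 and 163 of 395. At the shared Tut4 site, which lay at the genome background, the listed folds were 12.7 and 10.1, and by fragments it stood at 143 of 608 and 163 of 395. This recomputation was chosen after seeing the data.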
